A study of Caenorhabditis elegans with 12 samples.

Results

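Multi-exon assembled lncRNA loci are places in the Caenorhabditis elegans genome where the authors assembled spliced transcripts from their own libraries and put the locus in their table of long non-coding RNAs (lncRNAs). They were taken as the rows of that table with an assembled-locus identifier (LXLOC), apart from 7 identifiers that were left out, for which at least 1 assembled transcript had 2 or more exons. This gave 681 of the 3785 assembled loci considered. The other 3104 had a single exon in every transcript, and the table held 3926 rows in all. The identifier is a genome position given by the assembly and carries no gene name, so each locus described here is placed by the annotated genes whose exons or introns it shares.

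The 12 libraries were made from total RNA of whole worms of 2 strains fed on E. coli OP50. CN30, called trans-nuclear in the strain label and written NC30 in the sample titles, gave 3 libraries at day 0 and 1 library each at day 6, day 9 and day 12. N2, the laboratory wild type, gave the same number at the same days. The origins of the CN30 nuclear and mitochondrial genomes are not in the labels. Nothing there says that replicate libraries were separate cultures, so p-values measure the spread between these libraries, which among those of day 0 may be technical. The title of the study names mitochondrial polymorphisms and age, so the comparisons are CN30 against N2 at day 0 and at days 6 to 12, the later days against day 0 within each strain, the difference between the strains in that change, and the later days against each other.

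A long non-coding RNA is a transcript that is long but is not translated into a known protein. Most are made by RNA polymerase II and many are capped, spliced and polyadenylated like messenger RNA. Splicing joins exons at introns with defined borders, so a spliced transcript is less easily taken for stray genomic DNA than an unspliced one, and its introns show which annotated gene it belongs to. In C. elegans, spliced RNA without a long reading frame also comes from pseudogenes, which are disabled copies of coding genes, and from variant transcripts of coding genes. Such RNA is a known substrate of nonsense-mediated decay, the pathway of the SMG proteins that destroys transcripts with early stop codons.

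The loci were checked against the label first. Most of them ran through annotated genes. An exon overlapped a protein-coding exon on the same strand at 288 of the 681 multi-exon loci (42.3%), against 109 of the 3104 single-exon loci (3.51%). It overlapped a pseudogene, and no coding exon, at 158 multi-exon loci (23.2%), against 41 single-exon loci (1.32%). A further 76 multi-exon loci (11.2%) lay on another annotated non-coding RNA, against 313 single-exon loci (10.1%), and 3 multi-exon loci lay on ribosomal RNA genes, against none of the single-exon loci.

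The single-exon loci were placed differently. Classes were filled in order, same-strand overlap first, and a locus counted there was not counted again. Loci on a same-strand gene that also lie across from a coding exon are thus left out of the opposite-strand counts. The commonest class of the single-exon loci was across from a coding exon, with no annotated exon on the same strand. It held 71 multi-exon loci (10.4%) and 1218 single-exon loci (39.2%). Intergenic loci numbered 65 among the multi-exon loci (9.54%) and 1156 among the single-exon loci (37.2%). Loci within or across a gene without touching a coding exon numbered 20 (2.94%) and 267 (8.6%). By exons on the same strand, most spliced loci overlapped an annotated coding gene or pseudogene and most unspliced ones did not, and 65 of the spliced loci carried the same locus number as a row of the mRNA table of the authors. The transcript table does not mark which transcripts of such a shared number are non-coding, so the exon numbers, introns and lengths of these 65 loci may include coding transcripts.

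**Figure D1:**
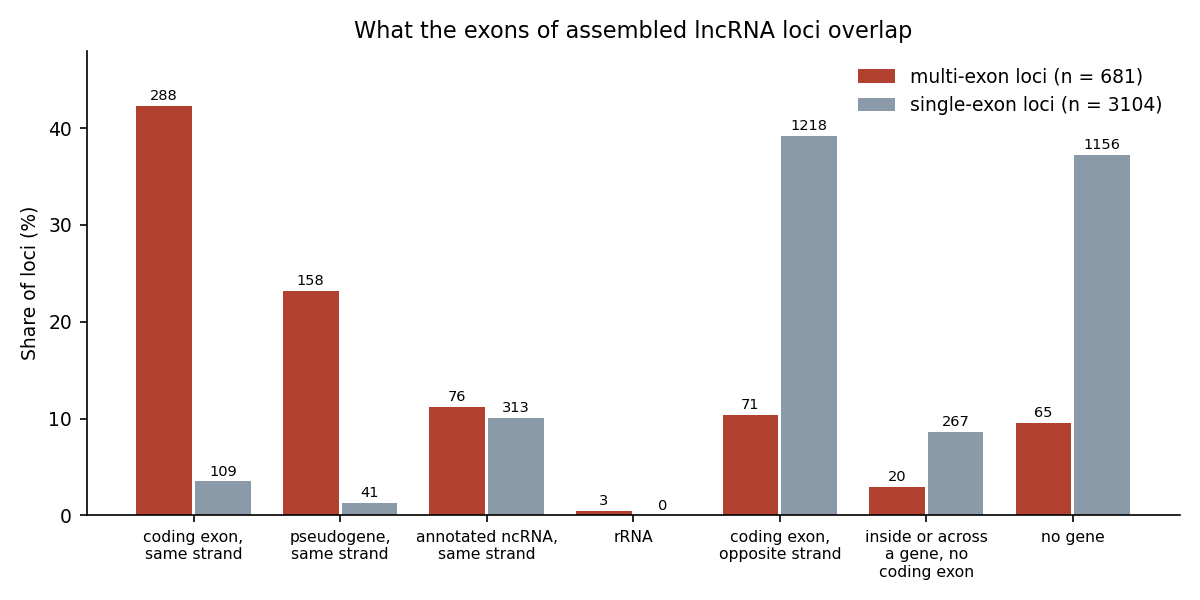
The share of loci (percent of loci of that kind) in each class of exon overlap with Ensembl annotation, with multi-exon loci (681) beside single-exon loci (3104). Same-strand overlap was placed first, and the opposite-strand class holds only loci with no annotated exon on the same strand. Multi-exon loci lie mostly on same-strand coding exons (42.3%) and pseudogenes (23.2%), single-exon loci mostly opposite coding exons (39.2%) or between genes (37.2%).

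The introns gave the same placement in finer detail. The 681 loci held 2237 distinct introns, of which 1476 (66%) were identical, at both ends and on the same strand, to an annotated intron. Over all assembled transcripts of the study 51677 of 55908 introns (92.4%) were identical to annotated ones. That count takes an intron once for each transcript that has it, so the shares are not on the same measure. All introns were annotated at 254 loci, some at 194 and none at 233. By the gene that owns the shared introns, 254 loci shared introns with a coding gene, 148 with a pseudogene and 46 with an annotated non-coding RNA, and these 4 classes (coding, pseudogene, non-coding and none) are used below. The annotated introns of these loci had a median length of 73 bp, and the unannotated ones 250 bp, with a range of 20 to 289627 bp. An intron longer than 10000 bp occurred at 19 loci.

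Most of the loci were simple. The transcript with the most exons had 2 exons at 277 loci, 3 exons at 159 and 4 or more at 245. Of these 245 loci, 42 had at least 10, and the most was 23. A single assembled transcript was given for 503 loci, and the most was 14. The longest transcript of a locus had a median of 968 nt (200 to 16277 nt), against 637 nt (200 to 16169 nt) for single-exon loci. The loci were spread over all 6 nuclear chromosomes, with 106 on I, 136 on II, 97 on III, 100 on IV, 124 on V and 118 on X, and over both strands (353 plus and 328 minus).

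Multi-exon loci were low in abundance but higher than single-exon loci. FPKM scales fragments by transcript length and by library depth, so levels of loci of different length can be set side by side, and all levels below are FPKM as the authors deposited them. The depth behind them is not known, since no read counts were among the values used. Averaged over the 12 libraries, the median multi-exon locus had 0.718 FPKM, against 0.245 FPKM for the median single-exon locus. A mean under 0.5 FPKM was found at 254 multi-exon loci, 0.5 to 1 at 138, 1 to 10 at 217, 10 to 100 at 62 and 100 or more at 10. A value above 0 in all 12 libraries was given for 447 of the 681 multi-exon loci, against 1310 of the 3104 single-exon loci.

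Loci with 3 to 9 exons had the highest median levels. The median of the mean level was 0.478 FPKM for loci with 2 exons, 1.14 FPKM for 3 exons, 1.3 FPKM for 4 to 9 exons and 0.478 FPKM for 10 or more, against 0.245 FPKM for single-exon loci. The share listed above 0 in all libraries was 52.3%, 71.1%, 77.8% and 73.8% in the same order, against 42.2% of single-exon loci. By intron class, the median of the mean level was 0.952 FPKM for loci sharing coding introns, 1.14 FPKM for pseudogene introns, 0.624 FPKM for non-coding introns and 0.514 FPKM for loci with no annotated intron. These are descriptions over loci of the same libraries, and loci that share exons with an annotated gene also share reads with it.

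The median level of the 681 loci differed little between libraries at day 0 and more at the later days. In CN30 it was 0.68, 0.74 and 0.65 FPKM in the day-0 libraries and 0.74, 0.83 and 0.87 FPKM at days 6, 9 and 12. In N2 it was 0.66, 0.56 and 0.69 FPKM at day 0 and 0.46, 0.39 and 0.66 FPKM at days 6, 9 and 12. CN30 days 9 and 12 were thus the highest and N2 days 6 and 9 the lowest. The number of loci above 0 was also highest in the later CN30 libraries, with 630 to 632 loci in the later CN30 libraries and 601 to 608 in its day-0 libraries, and with 578 to 612 in the later N2 libraries and 580 to 599 in its day-0 libraries.

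Tests were run with limma on log2(FPKM + 1) over all rows of the lncRNA table that reached 0.5 FPKM in at least 3 of the libraries compared, and a locus is called where its Benjamini-Hochberg adjusted p over all those rows is below 0.05. A difference on this scale understates the fold of low loci. For age, and for the strain difference in the age change, days 6, 9 and 12 were fitted as 1 later group. The SE and p of those tests thus also hold the change between these days. At least 0.5 FPKM in 1 or more libraries was reached by 654 of the 681 loci, and 543 entered the fit of all 12 libraries. The worms' makeup changed strongly with age in both strains, so markers of the tissues are given here once. Of the genes tested in the mRNA table, 80.9% were called with age in CN30 and 72.7% in N2, and the summed level of 46 sperm genes, mostly major sperm proteins, was 545, 103.7 and 111 FPKM at days 6, 9 and 12 of CN30 against 10590 to 10940 FPKM at its day 0. In N2 the sum was 57.2, 36.7 and 241 FPKM at days 6, 9 and 12 against 9240 to 12040 FPKM at day 0.

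Of these 46 genes, 44 fell and 1 rose with age in each strain. All 20 oocyte genes tested rose with age in both strains, all 14 body-wall muscle genes fell, and of the collagens of the cuticle 107 of 118 fell in CN30 and 100 of 111 in N2. Of 13 intestinal genes 3 rose and 5 fell in CN30 and 3 rose and 3 fell in N2. Of the genes of RNA surveillance and decay, which include the SMG genes, 20 of 22 rose with age in CN30 and 17 of 22 in N2, and none was called between the strains at day 0 or at days 6 to 12. In whole worms, fewer cells of a type and less RNA per cell cannot be told apart, and the part these shifts play in the changes of the loci was not tested. Between the strains at days 6 to 12, 12 of the 20 oocyte genes were lower and 7 of 13 neuronal genes higher in CN30; the neuronal sum was 243 to 355 FPKM in CN30 and 187 to 240.2 FPKM in N2. N2 day-0 replicate 2 stood farthest from its group at day 0. Its median absolute log2 deviation from the others of its group was 0.189, against 0.136 and 0.157 for replicates 1 and 3. In CN30 these deviations were 0.107, 0.143 and 0.126. The median SD of the loci over day-0 libraries, on the log2 scale, was 0.139 in CN30 and 0.192 in N2. It was 0.113 in N2 without that library, but an SD of 2 libraries tends to be lower than one of 3.

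At day 0, CN30 and N2 differed at a modest share of the loci. Of 409 loci tested, 26 were higher and 29 lower in CN30, with a median difference of 0.04 over all 409, while of the other 707 rows 54 were higher and 8 lower. Over all 1116 rows tested 10.5% were called, 7.17% higher and 3.32% lower, with a median difference of 0.11; of mRNA-table genes 3.68% were called. The count of 55 loci was 68 without N2 replicate 2. It was 23, 19 and 25 without CN30 replicates 1, 2 and 3, and 20 and 30 without N2 replicates 1 and 3. Under quantile normalization 21 loci were higher and 41 lower, at a median over all rows of -0.02, and after rescaling by median ratios 17 were higher and 46 lower, at a median of 0.01.

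By intron class, the loci called at day 0 ran in opposite directions. Of loci sharing pseudogene introns, 2 were higher and 11 lower in CN30, and both other scalings also had more lower than higher (2 and 15, 2 and 19). Loci with no annotated intron had 16 higher and 4 lower, and 12 and 6 or 8 and 6 under the other scalings. Loci sharing coding introns had 7 higher and 12 lower, and non-coding ones 1 higher and 2 lower. Loci of 2 exons had 19 higher and 7 lower of 132 tested, those of 4 to 9 exons 5 higher and 14 lower of 147. Whether these classes differ from each other was not tested.

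At days 6 to 12 the difference between the strains was nearly all in one direction. Of 425 loci tested, 94 were higher and 16 lower in CN30, with a median difference of 0.23. Over all 1140 rows 19.9% were called, 18.3% higher and 1.58% lower, with a median of 0.27, and 13% of mRNA-table genes were called. This direction rested on the scaling: quantile normalization, which took the median over all rows to 0.00, gave 19 higher and 16 lower loci, and median-ratio rescaling, at a median of -0.06, gave 23 higher and 39 lower. Loci with no annotated intron were more often higher than lower under all 3 scalings, at 37 and 4, then 12 and 4, then 13 and 8. Those of pseudogene introns were not, at 21 and 5, then 1 and 5, then 2 and 12. Without the CN30 library of day 9 the count of 110 was 71.

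**Figure D2:**
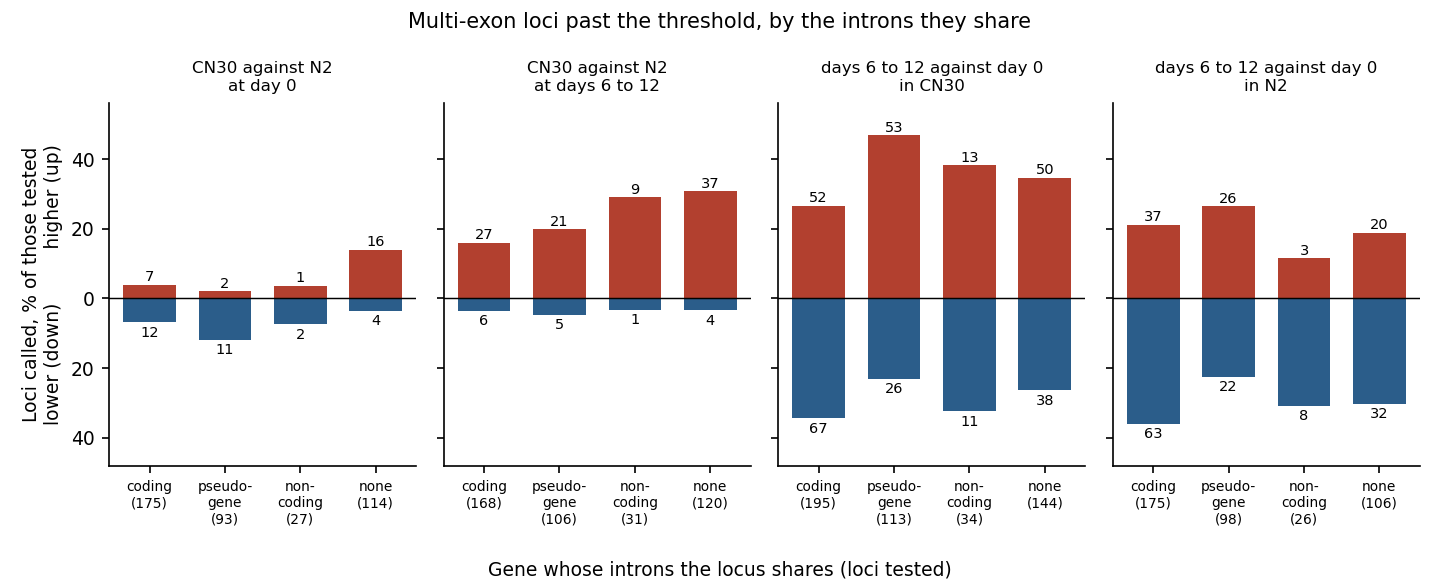
The percent of tested loci called higher (up) and lower (down) in each comparison, by the gene whose introns the locus shares, with the number called on each bar and the number tested in brackets. CN30 is set against N2 in the left pair of panels and days 6 to 12 against day 0 in the right pair. At days 6 to 12 the excess of higher loci in CN30 is lost for coding, pseudogene and non-coding introns under quantile normalization and median-ratio rescaling. With age the N2 balance of coding introns turns to more higher than lower under quantile normalization.

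Some loci separated the strains in every library. The 6 CN30 libraries all lay above the 6 N2 libraries at 20 of the 681 loci (2.94%), and at 1.53% of all rows, and all below at 12 (1.76%), against 0.382% of all rows. Of the 20 higher loci 12 shared no annotated intron, 5 shared coding introns and 3 pseudogene introns, and 8 lay on chromosome II. Some loci were called at both ages: of 302 loci tested at day 0 and at days 6 to 12, 12 were higher in CN30 in both, which is 70.6% of the 17 higher at day 0 and 20.7% of the 58 higher later. A further 9 were lower in both, 39.1% of the 23 lower at day 0 and 69.2% of the 13 lower later, and 2 were lower at day 0 and higher later. The day-0 and later comparisons share no library.

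The widest separation was at a pair of neighbouring loci on chromosome V. LXLOC_016124 (WBcel235, V:16928257-16930126, plus strand, up to 7 exons) shares introns with the pseudogene Y102A5C.5 and overlaps the pseudogene Y102A5C.6. In CN30 it had 0.16, 0.20 and 0.28 FPKM at day 0 and 4.74, 0.02 and 0.02 FPKM at days 6, 9 and 12; in N2 it had 61.0, 71.5 and 56.6 FPKM at day 0 and 58.4, 69.7 and 77.0 FPKM at days 6, 9 and 12. Every N2 library thus lay far above every CN30 library, and the CN30 library of day 6 was the highest of its strain. The log2 difference was -5.72 ± 0.15 at day 0 (SE, n = 3 each, limma adjusted p = 3.04e-07) and -5.25 ± 0.46 at days 6 to 12 (n = 3 each, limma adjusted p = 6.78e-05), and -6.19 at the later days without the CN30 library of day 6.

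Its neighbour on the other strand behaved alike. LXLOC_018967 (V:16924878-16927584, minus strand, up to 8 exons) shares introns with the coding genes Y102A5C.35 and Y102A5C.36 and its number with a row of the mRNA table. In CN30 it had 0, 0.01 and 0 FPKM at day 0 and 1.41, 0.04 and 0.06 FPKM at days 6, 9 and 12, against 22.2, 25.2 and 21.2 FPKM at day 0 and 29.8, 42.2 and 29.7 FPKM at days 6, 9 and 12 of N2. The groups did not overlap, with log2 differences of -4.57 ± 0.14 at day 0 (SE, n = 3 each, limma adjusted p = 3.78e-07) and -4.64 ± 0.29 later (n = 3 each, limma adjusted p = 8.14e-06). Farther along the chromosome, LXLOC_019018 (V:17315474-17315960, minus strand), on the annotated non-coding RNA F31E9.11, was listed at 0 in every CN30 library but day 6, at 0.88 FPKM, against 2.67, 4.34 and 4.02 FPKM at day 0 and 2.27, 3.01 and 2.23 FPKM at days 6, 9 and 12 of N2. Its day-0 difference was -2.21 ± 0.17 on the log2(FPKM + 1) scale (SE, n = 3 each, limma adjusted p = 0.000268), a value set by the pseudocount since CN30 was at 0.

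The CN30 library of day 6 was the highest CN30 library at 7 of the 12 loci that were lower in CN30 throughout. Over all loci, how often this library was the highest of CN30 was not counted. Set against the N2 library of the same day, it had 8.12% of the N2 level at LXLOC_016124, 4.73% at LXLOC_018967 and 38.8% at LXLOC_019018. At LXLOC_010217, where it was not the highest CN30 library, it had 5.95%. For LXLOC_016124 the later difference without this library is given above. The part that this library plays in the later comparison of the 4 loci was not tested further.

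Intergenic loci separated the strains in both directions. LXLOC_010217 (IV:990844-991613, plus strand) lies 391 bp from egrh-2, which encodes a zinc-finger protein of the EGR family, and 669 bp from lep-2, a Makorin gene that times maturation. In CN30 it had 8.02, 8.34 and 8.60 FPKM at day 0 and 3.72, 2.04 and 1.31 FPKM at days 6, 9 and 12, against 48.3, 55.9 and 69.4 FPKM at day 0 and 62.5, 64.2 and 32.0 FPKM at days 6, 9 and 12 of N2. The strains were apart at every age, by -2.64 ± 0.18 at day 0 (SE, n = 3 each, limma adjusted p = 0.00014) and -4.0 ± 0.21 later (n = 3 each, limma adjusted p = 3.01e-06). LXLOC_010201, also intergenic (IV:832929-833334, plus strand), had 0 to 0.74 FPKM over the 6 CN30 libraries against 2.28 to 9.51 FPKM over the 6 N2 libraries, with a later difference of -2.5 ± 0.25 (SE, n = 3 each, limma adjusted p = 0.000141).

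Others were higher in CN30. LXLOC_014234 (V:3328647-3329021, plus strand), between C17B7.8 and C17B7.9, had 19.0, 12.7 and 18.4 FPKM at day 0 and 32.1, 35.2 and 33.3 FPKM at days 6, 9 and 12 of CN30, against 3.51, 0.94 and 1.30 FPKM and 3.70, 9.18 and 5.30 FPKM in N2. The lowest CN30 library was above the highest N2 library, with differences of 2.68 ± 0.32 at day 0 (SE, n = 3 each, limma adjusted p = 0.00164) and 2.36 ± 0.23 later (n = 3 each, limma adjusted p = 0.00014). LXLOC_020274 (X:9444107-9445603, plus strand), between memb-1 and ZK899.1, had 3.51 to 3.77 FPKM at day 0 and 6.51 to 8.76 FPKM later in CN30, against 0.56 to 0.71 FPKM at any age in N2. LXLOC_005265 (II:665679-666872, minus strand, 5 exons), between the chemoreceptor genes sri-45 and sri-46, had 1.94 to 4.5 FPKM in CN30 against 0.02 to 1 FPKM in N2. Both of these loci were called at day 0, LXLOC_020274 by 1.51 ± 0.12 (SE, n = 3 each, limma adjusted p = 0.00035) and LXLOC_005265 by 1.47 ± 0.16 (n = 3 each, limma adjusted p = 0.00121).

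**Figure D3:**
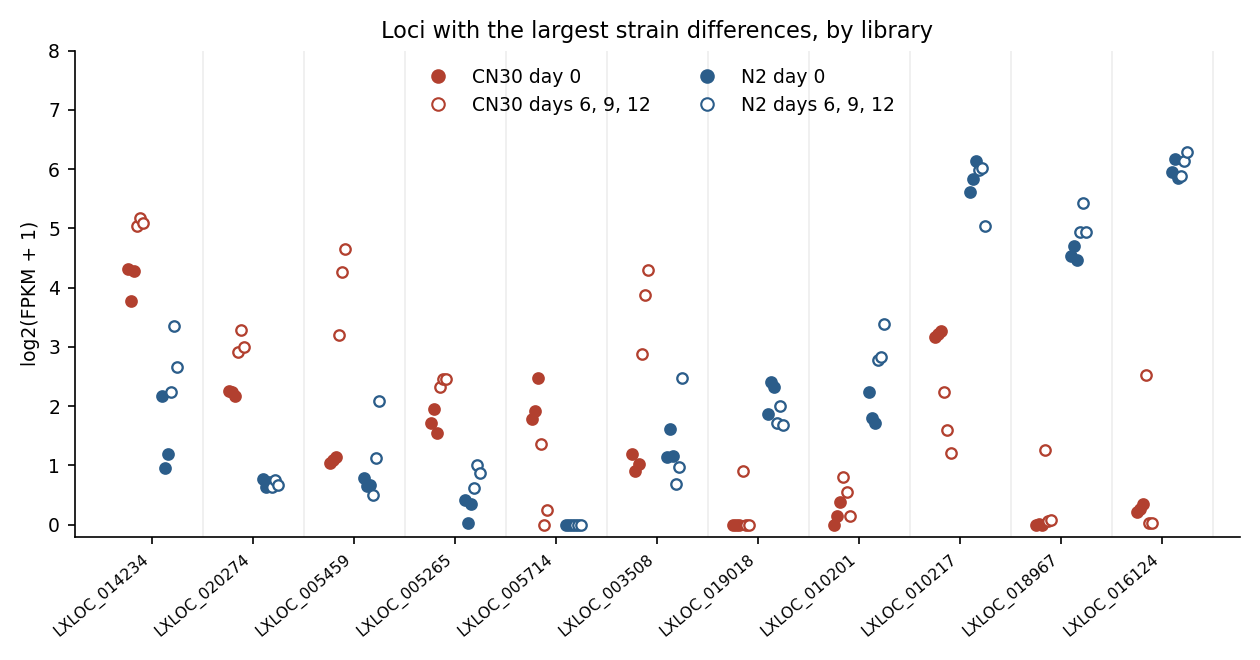
Levels as log2(FPKM + 1) in each library of loci named for their difference between the strains, with the CN30 libraries left of the N2 libraries filled circles for day 0 and open circles for days 6, 9 and 12. At LXLOC_016124 the CN30 libraries lie between 0.02 and 4.74 FPKM and the N2 libraries between 56.6 and 77.0 FPKM, and at LXLOC_014234 the order is turned round.

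Other loci on coding genes also separated the strains, and the following were singled out after their values were seen. LXLOC_007116, which shares introns with cTel54X.2 and the neuropeptide-receptor gene npr-30 near the left end of chromosome III, had 0.02 to 0.20 FPKM in CN30 against 0.62 to 2.10 FPKM in N2. LXLOC_001914, on the DEAD-box helicase gene vbh-1, had 3.57 to 4.77 FPKM in CN30 against 6.74 to 8.66 FPKM in N2. LXLOC_004487, on F07H5.13 and F07H5.5, averaged 247 FPKM over the CN30 libraries against 138 FPKM over the N2 libraries. These values are a description of the loci that did not overlap.

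A few loci were listed at 0 throughout a strain. All 6 N2 libraries were listed at 0, with 0.5 FPKM or more in some CN30 library, at 5 loci: LXLOC_005714, LXLOC_008051, LXLOC_008075, LXLOC_016321 and LXLOC_017217. All 6 CN30 libraries were listed at 0 at 2 loci, LXLOC_015544 and LXLOC_018968. LXLOC_005714 (II:3639632-3640294, minus strand) shares an intron with the coding gene M151.10 and had 2.45, 2.79 and 4.58 FPKM at day 0 and 1.57, 0 and 0.19 FPKM at days 6, 9 and 12 of CN30. It was called at day 0 (limma adjusted p = 0.000593, n = 3 each), and no fold is given against a group at 0. LXLOC_008075 shares introns with plg-1, a mucin-like gene needed for the mating plug that is known to be disrupted by a retrotransposon in N2; it had 0.95, 0.50 and 1.47 FPKM at day 0 and 0, 0.12 and 0.08 FPKM at days 6, 9 and 12 of CN30. The mRNA-table locus of the same number ran the other way, with 3.33, 4.13 and 5.98 FPKM at day 0 and 8.53, 0.10 and 0.16 FPKM later in CN30, against 24.1 to 40.03 FPKM in N2.

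Age moved many more of the loci than strain did. In CN30, 168 of 486 loci tested were higher and 142 lower at days 6 to 12 than at day 0, with a median difference of 0.16. Over all 1338 rows 50.9% were called, 26.1% higher and 24.8% lower, with a median of 0.03. In N2, 86 of 405 loci were higher and 125 lower, with a median of -0.10, against 40.8% of 917 rows called, 13.3% higher and 27.5% lower, with a median of -0.11. Under quantile normalization the counts were 199 higher and 136 lower in CN30 and 160 higher and 101 lower in N2. Median-ratio rescaling gave 133 higher and 158 lower in CN30 and 99 higher and 116 lower in N2, so the balance of directions was not settled in either strain. The median over all rows in CN30 was 0.08 with quantiles matched and -0.08 after rescaling, and in N2 it was 0.15 and -0.04.

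Leaving out a library lowered the age counts, in part because fewer loci then passed the filter. In CN30 the 310 calls became 194 and 198 without day-0 replicates 1 and 3 and 190 without day 9. In N2 the 211 calls became 98, 133 and 114 without day-0 replicates 1, 2 and 3. Regardless of test, the 6 later libraries all lay above the 6 day-0 libraries at 116 of the 681 loci (17%) and all below at 116, against 6.5% and 7.23% of all rows. Of 379 loci tested in both strains, 65 were higher with age in both, which is 55.1% of the 118 higher in CN30 and 82.3% of the 79 higher in N2. A further 100 were lower in both, 83.3% of the 120 lower in CN30 and 85.5% of the 117 lower in N2, and none was called in opposite directions under any of the 3 scalings.

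Loci sharing pseudogene introns leaned to higher with age in CN30 under all 3 scalings. In CN30, 53 were higher and 26 lower with a median difference of 0.46, and the counts were 61 and 24 under quantile normalization and 39 and 27 under median-ratio rescaling. In N2, 26 were higher and 22 lower, then 53 and 19, then 28 and 19. Loci sharing coding introns had 52 higher and 67 lower in CN30 and 37 higher and 63 lower in N2; quantile normalization turned both, to 67 and 63 and to 61 and 50, and median-ratio rescaling turned neither, at 43 and 74 and at 40 and 59. Loci with no annotated intron had 50 higher and 38 lower in CN30, turned by median-ratio rescaling to 40 and 46. In N2 they had 20 higher and 32 lower, turned by quantile normalization to 36 and 27.

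**Figure D4:**
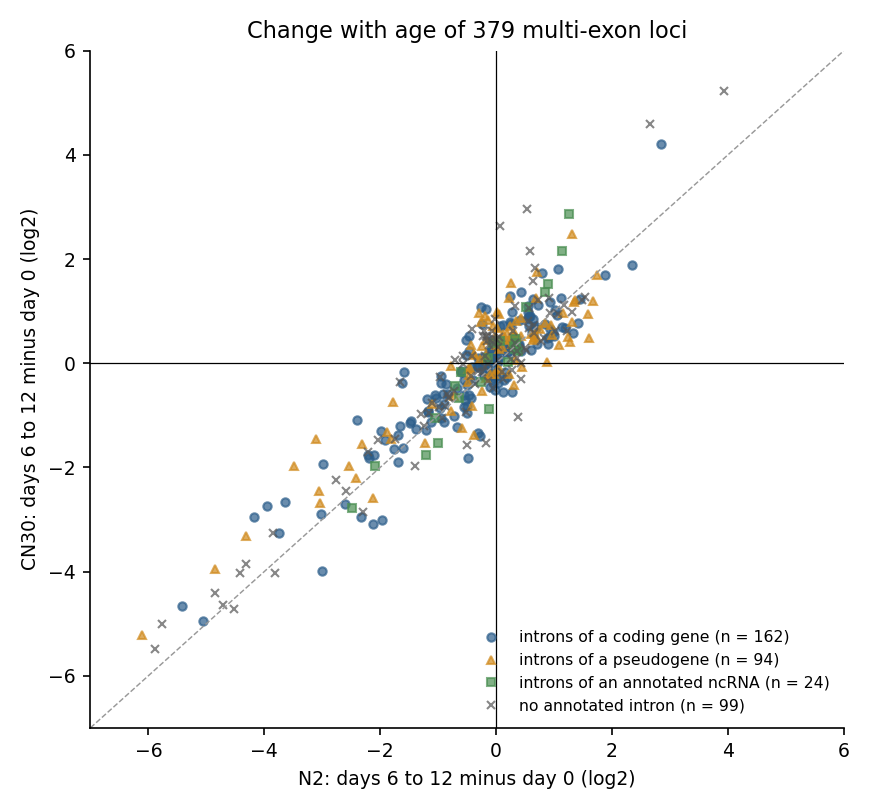
The log2 difference of days 6 to 12 minus day 0 in CN30 (vertical) and in N2 (horizontal) for the 379 loci tested in both strains, with a marker for each intron class and a dashed line of equal change. Of these, 65 were higher in both strains and 100 lower in both, and none was called in opposite directions.

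The largest rises lay on annotated non-coding RNAs and a coding gene. LXLOC_001224 (I:11236843-11238561, plus strand) lies on the non-coding RNA F46A8.13, opposite F46A8.7. It had 52.5, 124 and 166 FPKM at days 6, 9 and 12 against 2, 1.53 and 1.77 FPKM at day 0 of CN30, and 22.8, 26.5 and 71.2 FPKM against 1.60, 0.88 and 1.71 FPKM in N2. Every later library was above every day-0 library, with differences of 5.23 ± 0.39 in CN30 (SE, n = 3 each, limma adjusted p = 3.09e-05) and 3.93 ± 0.41 in N2 (n = 3 each, limma adjusted p = 0.000139). Between the strains it was higher in CN30 at days 6 to 12 by 1.52 (n = 3 each, limma adjusted p = 0.00282).

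LXLOC_007087 (II:15037709-15044333, minus strand) lies on the non-coding RNA Y53F4B.45, across from cmtr-1, a cap methyltransferase gene, and trip-4. It had 34.9, 86.4 and 92.3 FPKM at days 6, 9 and 12 against 1.65, 1.72 and 1.93 FPKM at day 0 of CN30, and 10.45, 17.6 and 25.3 FPKM against 1.86, 1.34 and 2.35 FPKM in N2. The change was 4.59 ± 0.36 in CN30 (SE, n = 3 each, limma adjusted p = 3.83e-05) and 2.65 ± 0.31 in N2 (n = 3 each, limma adjusted p = 0.00026), and the mRNA-table row of cmtr-1 changed by 1.28 in CN30 and 1.14 in N2. Whether the libraries kept the strand is not given in the sources used here, so reads of a locus and of a gene across from it may not be told apart. LXLOC_014750 (V:7526002-7526855, plus strand), which shares introns with the coding gene C54F6.18, had 11.6, 23.4 and 30.8 FPKM later against 0.12, 0.16 and 0.18 FPKM at day 0 of CN30, and 4.34, 4.79 and 12.9 FPKM against 0.06, 0 and 0.11 FPKM in N2, changes of 4.21 ± 0.32 (SE, n = 3 each, limma adjusted p = 3.09e-05) and 2.84 ± 0.34 (n = 3 each, limma adjusted p = 0.000307).

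Other rises were at an intergenic locus, a pair of antimicrobial peptide genes and an end of the X chromosome. LXLOC_005459 (II:2008056-2009804, minus strand), between the homeobox gene ceh-84 and F59H6.15, had 8.25, 18.2 and 24.3 FPKM at days 6, 9 and 12 against 1.06, 1.13 and 1.2 FPKM at day 0 of CN30, a change of 2.95 ± 0.34 (SE, n = 3 each, limma adjusted p = 0.00026). In N2 it had 0.41, 1.19 and 3.23 FPKM against 0.72, 0.58 and 0.60 FPKM, a difference of 0.53 that was not called (n = 3 each, limma adjusted p = 0.276). The difference between the strains in this change was 2.42 ± 0.53 and was not called (SE, n = 3 each, limma adjusted p = 0.0527). LXLOC_003508, intergenic on the other strand nearby (II:1961429-1970995), had 6.35, 13.8 and 18.6 FPKM against 0.88 to 1.30 FPKM at day 0 of CN30 and 0.61, 0.97 and 4.57 FPKM against 1.22 to 2.07 FPKM in N2; here the strains differed in the change by 2.57 ± 0.60, which was not called either (limma adjusted p = 0.0593, n = 3 each).

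LXLOC_013985 (V:1447265-1448679, plus strand) shares introns with cnc-3 and cnc-4, caenacin genes of the innate immune response, and 1 of its exons, of 739 nt, overlaps both genes. It had 24.4, 23.2 and 24.8 FPKM later against 5.56, 5.23 and 6.59 FPKM at day 0 of CN30, and 36.8, 62.3 and 23.8 FPKM against 8.88, 2.60 and 11.5 FPKM in N2. The later libraries were above day 0 in both strains, by 1.89 ± 0.17 in CN30 (SE, n = 3 each, limma adjusted p = 9.2e-05) and 2.35 ± 0.51 in N2 (n = 3 each, limma adjusted p = 0.0065). LXLOC_021031 (X:16929925-16944349, plus strand, 7 exons, 14 transcripts), on the non-coding RNA C30E1.9, had 119, 222 and 213 FPKM at days 6, 9 and 12 against 24.2, 34.6 and 15.9 FPKM at day 0 of CN30, and 43.1, 48.7 and 111 FPKM against 27.04, 19.0 and 31.3 FPKM in N2. It rose by 2.86 ± 0.35 in CN30 (SE, n = 3 each, limma adjusted p = 0.000345) and by 1.25 ± 0.37 in N2 (n = 3 each, limma adjusted p = 0.0281).

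The largest falls were at loci high at day 0 in both strains and low later. LXLOC_011195 (IV:9767436-9769006, plus strand) lies on the pseudogene T13F2.9 between the major sperm protein genes msp-79 and msp-78, at 281 and 1039 bp. It had 5.16, 1.09 and 2.16 FPKM at days 6, 9 and 12 against 127, 123 and 129 FPKM at day 0 of CN30, and 0.50, 0.15 and 3.09 FPKM against 126, 120 and 152 FPKM in N2. The fall was by 5.21 ± 0.36 on the log2 scale in CN30 (SE, n = 3 each, limma adjusted p = 2.46e-05) and by 6.12 ± 0.43 in N2 (n = 3 each, limma adjusted p = 1.73e-05). The summed sperm genes given above were also highest at day 6 among the later CN30 libraries and at day 12 among the later N2 libraries, as this locus was.

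LXLOC_012528 (IV:5162826-5165726, minus strand) joins 53 nt of nspd-3 to 163 nt of nspd-6, members of a nematode-specific peptide family whose exons each sum to 216 nt, and its FPKM equals that of nspd-3 in the mRNA table in every library. The nspd-6 row differed, with 38.3, 43.2 and 45.7 FPKM at day 0 of CN30. How alike these genes are in sequence was not examined. Since it repeats the values of nspd-3, the locus is uncertain as an RNA of its own. It had 2.88, 0.45 and 0.56 FPKM later against 93.1, 82.4 and 102 FPKM at day 0 of CN30, and 0.49, 0.38 and 1.64 FPKM against 97.3, 129 and 86.4 FPKM in N2. It fell by 5.50 ± 0.37 in CN30 (SE, n = 3 each, limma adjusted p = 2.28e-05) and by 5.89 ± 0.29 in N2 (n = 3 each, limma adjusted p = 2.86e-06).

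The other large falls followed the same course. LXLOC_011687 (IV:13593553-13593850, plus strand), on the coding gene Y45F10B.3, had 6.05, 1.18 and 0.38 FPKM later against 86.5, 86.5 and 91.3 FPKM at day 0 of CN30, and 0.38, 0.20 and 1.38 FPKM against 82.2, 82.8 and 90.7 FPKM in N2. It fell by 5.01 ± 0.52 in CN30 (SE, n = 3 each, limma adjusted p = 0.000163) and by 5.77 ± 0.27 in N2 (n = 3 each, limma adjusted p = 2.86e-06). A pair of neighbours on opposite strands of chromosome II, LXLOC_005987 on F10C1.3 (II:5756897-5757850) and LXLOC_004068 on F10C1.23 (II:5758048-5758774), fell together. LXLOC_005987 had 0.19 to 1.61 FPKM later against 46.0 to 57.6 FPKM at day 0 of CN30, and 0.20 to 1.92 FPKM against 54.1 to 58.3 FPKM in N2. LXLOC_004068 had 0.75 to 2.86 FPKM later against 60.3 to 60.7 FPKM at day 0 of CN30, and 0 to 1.27 FPKM against 57.9 to 71.6 FPKM in N2. LXLOC_005987 changed by -4.94 ± 0.29 in CN30 (SE, n = 3 each, limma adjusted p = 1.65e-05) and LXLOC_004068 by -5.43 ± 0.30 in N2 (n = 3 each, limma adjusted p = 4.57e-06).

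**Figure D5:**
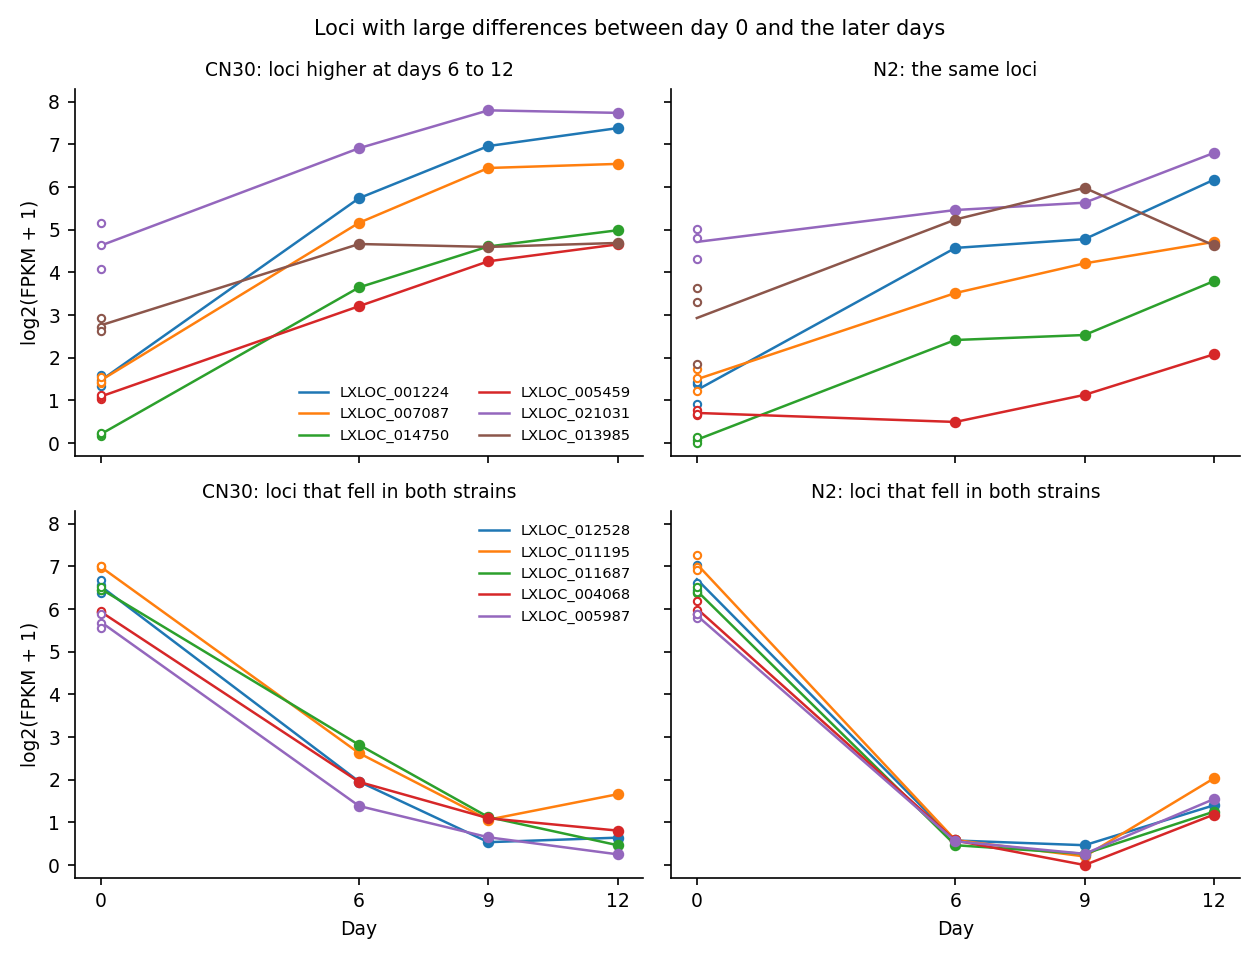
Levels as log2(FPKM + 1) by day in CN30 and in N2, with open circles for the 3 day-0 libraries, filled circles for the single libraries of days 6, 9 and 12, and a line through the day-0 mean and the later values. In the lower panels all 5 loci fall by day 6 in both strains; in the upper panels LXLOC_005459 reaches 24.3 FPKM at day 12 of CN30 and 3.23 FPKM at day 12 of N2.

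Loci on coding genes were set beside the genes themselves, as values of the same libraries and partly of the same reads. For 156 loci whose shared introns belong to a coding gene of the mRNA table, the locus had a median 79.8% of the gene's FPKM and lay below it at 83. In CN30 with age, 60 such pairs were tested on both sides: 9 were higher at both, 19 lower at both, 1 higher at the locus and lower at the gene, and 1 the reverse. In N2, of 51 pairs, 4 were higher at both, 18 lower at both, with 1 in each opposite direction. Of 65 loci that share a locus number with the mRNA table, 54 lay below that row, with a median 16.7% of its level.

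Loci across from a coding gene were far below it. For 56 loci opposite 1 coding gene of the mRNA table, and on no same-strand annotated exon, the locus had a median 3.72% of the gene's FPKM. It lay below the gene at 51. In CN30 with age, of 24 pairs tested on both sides, 2 were higher at both, 1 lower at both, 7 lower at the locus and higher at the gene, and 2 the reverse. In N2, of 16 pairs, 2 were lower at both and 4 lower at the locus and higher at the gene. A locus on the sense strand also parted from a gene with age in CN30. LXLOC_003796 (18 exons) shares introns with sea-2, a zinc-finger gene of sex determination, and with K10G6.9. The locus fell by 0.92 in CN30 (n = 3 each, limma adjusted p = 0.00469) and by 1.18 in N2 (n = 3 each, limma adjusted p = 0.00402). The mRNA-table row of the same number differed by -0.15 in CN30, which was not called (n = 3 each, limma adjusted p = 0.241). In N2 that row differed by -0.57 (n = 3 each, limma adjusted p = 0.0246). The sea-2 row of the mRNA table rose by 0.89 in CN30 (n = 3 each, limma adjusted p = 0.00109) and differed by -0.30 in N2, which was not called (n = 3 each, limma adjusted p = 0.26).

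Among the later days few loci were called, with 2 libraries a day (1 of each strain). All 12 libraries entered these fits, with strain and day as terms. The SE and p thus hold the spread of the day-0 libraries and any change of the strain difference from day to day. The 2 libraries of a later day are not replicates of a strain. No locus was called between day 9 and day 6, where 0.0% of 1717 rows were called and 26 loci had an unadjusted limma p under 0.05. None was called between day 12 and day 9 either, where 0.0% of rows were called and 44 loci had an unadjusted limma p under 0.05. Between day 12 and day 6, 4 of 543 loci were higher and 1 lower at day 12, and 0.582% of rows were called. This count of 5 was 19 without N2 day 9 and 15 without CN30 day 9, and 3 without CN30 or N2 day-0 replicate 1 or N2 day-0 replicate 3. It was 1, 2 and 2 without CN30 day 6, CN30 day 12 and N2 day 6.

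LXLOC_018640 on the non-coding RNA T09F5.12 (chromosome V) had 16.0, 35.9 and 66.6 FPKM at days 6, 9 and 12 of CN30 and 5.21, 8.72 and 26.7 FPKM at the same days of N2, a step in both strains, and was higher at day 12 than at day 6 by 2.07 ± 0.36 (SE, n = 2 each, limma adjusted p = 0.0204). LXLOC_003753 on F19B10.14 (chromosome II) had 1.91, 7.01 and 8.80 FPKM in CN30 and 1.95, 4.01 and 7.87 FPKM in N2, and differed by 1.67 ± 0.23 (n = 2 each, limma adjusted p = 0.00461). LXLOC_011861 on Y105C5A.13 and LXLOC_017382, a locus of 14748 nt over 3 non-coding RNAs on chromosome V, were higher by 1.02 and 1.01 (n = 2 each, limma adjusted p = 0.0141 and 0.0371). LXLOC_013543, on the pseudogene B0513.12, had 4.78, 2.28 and 2.04 FPKM in CN30 and 7.07, 1 and 1.35 FPKM in N2 and was lower at day 12, by -1.35 ± 0.25 (n = 2 each, limma adjusted p = 0.0295). It had been at 0.46 FPKM or less in every day-0 library of either strain, so its highest level was at day 6.

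The change with age differed between CN30 and N2 at 6 of the 543 loci tested, against 0.466% of 1717 rows. LXLOC_012222, on the non-coding RNA Y69A2AR.49 (chromosome IV), was near 0 in CN30 at every age, at 0, 0 and 0 FPKM later against 0.19, 0 and 0 FPKM at day 0, while in N2 it had 0, 0.21 and 0.21 FPKM later against 2.57, 2.77 and 3.49 FPKM at day 0. LXLOC_004848, on the coding gene ZK930.6 (chromosome II), had 1.08, 0.63 and 0.42 FPKM later against 0.84, 0.99 and 0.88 FPKM at day 0 of CN30, and 0.12, 0.13 and 0.24 FPKM against 2.72, 2.31 and 2.45 FPKM in N2. At both loci the day-0 level was higher in N2, and at LXLOC_012222 CN30 had no level from which to fall, so its call restates the fall in N2. LXLOC_000449, on the coding gene B0041.1 and named after its values were seen, had 0.28, 0.14 and 0 FPKM later against 3.24, 3.22 and 3.5 FPKM at day 0 of CN30, and 0.05, 0.19 and 0.19 FPKM against 9.01, 6.87 and 8.33 FPKM in N2. It was near 0 later in both strains and had started higher in N2.

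A pair of pseudogene loci fell in both strains and to a lower level in N2. LXLOC_008192, on F40F12.8 (chromosome III), had 0.78, 1.47 and 1.31 FPKM later against 5.10, 4.53 and 5.31 FPKM at day 0 of CN30, and 0.08, 0.09 and 0.85 FPKM against 10.7, 8.10 and 12.2 FPKM in N2. LXLOC_018575, on C47E8.10 (chromosome V), had 0.74, 1.57 and 1.07 FPKM later against 6.51, 6.52 and 8.87 FPKM at day 0 of CN30, and 0.07, 0.22 and 0.50 FPKM against 12.1, 12.2 and 14.9 FPKM in N2. LXLOC_021123, which shares introns with the pseudogene Y73B3A.3 on X, ran the other way, with 1.23, 1.07 and 0.77 FPKM later against 0.33, 0.43 and 0.55 FPKM at day 0 of CN30, and 4.66, 4.22 and 4.67 FPKM against 0.73, 0.61 and 1.12 FPKM in N2. It shares its number with a row of the mRNA table, so its introns may include those of coding transcripts. That row changed with age by 0.52 in CN30 and by 0.07 in N2. The count of 6 was 0 to 3 without any one of 9 libraries, 60 without CN30 day 6 and 70 without N2 day 12.

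The most abundant loci lay on ribosomal RNA genes. LXLOC_001661, on the 18S ribosomal RNA gene rrn-1.1 at the right end of chromosome I, had 27037 to 53330 FPKM in CN30 and 31391 to 58981 FPKM in N2. LXLOC_001662, on rrn-2.1 and rrn-3.1, had 6094 to 7592 FPKM later against 11235 to 14781 FPKM at day 0 of CN30, and 6487 to 7402 FPKM against 11837 to 21724 FPKM in N2. Since rRNA genes are repeated and their share depends on how much rRNA was removed, these levels are a description. The 681 loci held 39.9% to 57.7% of the summed FPKM of the lncRNA table, most of it at these 2 loci.

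Below the rRNA loci came LXLOC_000463 on rpl-41.1, a gene of the large ribosomal subunit, at 804 to 1193 FPKM over the 12 libraries. Next was LXLOC_002843, of 265 nt on chromosome I, at 181 to 1516 FPKM. LXLOC_000463 reaches past rpl-41.1 through an exon of 15 nt (I:4741255-4741269), and its next exon begins at I:4789234. LXLOC_002843 joins 205 nt (I:11249145-11249349) and 60 nt (I:11303256-11303315). Both loci thus have an intron longer than 10000 bp, and whether these junctions are real was not tested. Small RNA genes aside, which were not counted, LXLOC_002843 touches no annotated exon on either strand. LXLOC_022668 (X:17074990-17078071, minus strand) joins 171 and 117 nt and, small RNA genes aside, also touches no annotated exon. It had 654 to 942 FPKM in CN30 against 268 to 495 FPKM in N2. Its groups did not overlap, with a difference of 1.16 ± 0.19 at day 0 (SE, n = 3 each, limma adjusted p = 0.00755) and 0.73 later (n = 3 each, limma adjusted p = 0.0445). LXLOC_004485, on the pseudogene F07H5.3, had 144 to 296 FPKM.

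Of the loci with the most exons, 4 of 6 were low. LXLOC_019593, with 23 exons on the non-coding RNA Y59E1B.1, had 0.30, 0.52 and 1.08 FPKM at days 6, 9 and 12 against 0 to 0.01 FPKM at day 0 of CN30, and stayed at 0.05 FPKM or less in N2. LXLOC_020632, with 22 exons and all 21 introns annotated to the pseudogene C53C7.5, was the highest of them: it had 14.6, 20.2 and 15.3 FPKM later against 9.21, 12.5 and 7.34 FPKM at day 0 of CN30, and 15.2, 13.01 and 14.4 FPKM against 7.44, 5.20 and 8.37 FPKM in N2. It rose with age in both strains, by 0.74 in CN30 (n = 3 each, limma adjusted p = 0.0305) and by 0.94 in N2 (n = 3 each, limma adjusted p = 0.00779). The next loci lay on coding genes: LXLOC_001663 (21 exons, across the methyltransferase gene homt-1, the CoREST gene rcor-1 and the sestrin gene sesn-1), LXLOC_011798 (19 exons, on the actin-regulating gene eps-8) and LXLOC_012157 (19 exons, on the nucleoporin gene npp-8) had at most 0.89, 0.55 and 0.99 FPKM in any library, and LXLOC_003796 (18 exons, on sea-2) had 0.48 to 4.66 FPKM. All 4 share their number with an mRNA-table row, as do LXLOC_001556 and LXLOC_018044 below, so their exon counts and lengths may include coding transcripts. After LXLOC_021031, the loci with the most transcripts were LXLOC_008075 on plg-1, described above, and LXLOC_001556 on the pseudogenes Y71A12B.13 and Y71A12B.14, with 9 each; LXLOC_001556 had 0.10 to 0.37 FPKM.

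The longest transcripts ran across several genes. LXLOC_018044 (16277 nt, chromosome V) covers T28B11.1 and neighbouring genes on both strands and had 1.5 to 2.09 FPKM in CN30 and 1.16 to 1.73 FPKM in N2. LXLOC_017382 (14748 nt) lies across from cpg-4, a chondroitin proteoglycan gene, and fos-1, and had 1.24, 2.63 and 3.57 FPKM at days 6, 9 and 12 against 0.41 to 0.48 FPKM at day 0 of CN30, with 0.58, 1.15 and 2.14 FPKM against 0.23 to 0.42 FPKM in N2. LXLOC_003134 (12941 nt, chromosome I) lies across from the ribosomal protein gene rps-6 and had 1.13 to 1.46 FPKM later against 0.48 to 0.59 FPKM at day 0 of CN30, and 0.38 to 0.70 FPKM against 0.55 to 0.67 FPKM in N2.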

How the data were processed

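The authors deposited 1 FPKM table of lncRNAs and 1 of mRNAs, with a column for each library, and a table of assembled transcripts with their exon positions, lengths and exon numbers. Per the submitters' processing notes, HISAT, StringTie and the WBcel235 build were used; versions and settings are not given in the sources used here. Libraries followed Illumina protocols, per the labels. Exons and introns were matched to the Ensembl annotation of WBcel235. An overlap is 1 base or more on the strand named, and an intron match needs both ends. Small RNA genes were left out of the classes of exon overlap. Differences were tested two-sided with limma 3.58.1 (lmFit, eBayes with trend; R 4.3.3) on log2(FPKM + 1), over rows with 0.5 FPKM (in the mRNA table, 1 FPKM) in at least 3 fitted libraries, with Benjamini-Hochberg adjustment over the whole table. A smallest exact permutation p of 0.1 for 3 against 3 libraries left no single-locus permutation test. Later days were compared between strains with day as a term. The loci and lists were chosen with earlier results of these data known. Named loci were, per comparison, the 4 largest called changes in each direction with 1 FPKM in the higher group and groups that do not overlap, and those with the highest level, most exons, most transcripts and longest transcript. Alternatives changed pseudocount, filter, scaling, member rule and model terms, or left out a library.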

Additional observations from a re-analysis of the deposited data

Results flagged for a closer look

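At 6 loci the change with age differed between CN30 and N2 in a test of the difference itself (limma, strain by age interaction over 12 libraries, 3 per strain and age group). Positive values mean a change that was higher in CN30 than in N2. LXLOC_012222 differed by 1.705 ± 0.18 (SE, n = 3 each, limma adjusted p = 0.000809), but CN30 was at 0 to 0.19 FPKM in all 6 libraries and could not fall further, so this value restates the fall in N2 and does not show a different response to age in CN30. LXLOC_008192 differed by 1.647 ± 0.32 (n = 3 each, limma adjusted p = 0.0441) and LXLOC_018575 by 1.513 ± 0.28 (n = 3 each, limma adjusted p = 0.0408), both on pseudogenes that fell in both strains. LXLOC_004848 differed by 1.414 ± 0.20 (n = 3 each, limma adjusted p = 0.00795), and LXLOC_021123, on a pseudogene, by -1.119 ± 0.20 (n = 3 each, limma adjusted p = 0.0408). LXLOC_000449, on the coding gene B0041.1, lay outside the rule for named loci, was named after its values were seen, and differed by 1.054 ± 0.20 (n = 3 each, limma adjusted p = 0.0408). Day-0 levels of LXLOC_012222, LXLOC_004848, LXLOC_008192, LXLOC_018575 and LXLOC_000449 were lower in CN30 than in N2.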

How the results depend on the processing

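Calls were counted under each other setting. At day 0 the 55 calls became 34 with loci on same-strand coding exons left out, 31 with no filter, and 19 to 68 without one library. Replicate numbers did not pair the day-0 libraries (correlations of deviations 0.106, -0.0409 and -0.0734), and the replicate block gave 35. For CN30 against N2 at days 6 to 12 the 110 calls became 19 with no filter, 35 with quantile normalization, 62 with median-ratio rescaling, 51 with no day term, and 71 to 132 without one library. With age, leaving out loci on coding exons gave 181 in CN30 and 102 in N2, and leaving out a library 190 to 256 and 98 to 171. The 6 interaction calls became 2 with no filter, 20 with a filter of 1 FPKM and 0 to 70 without one library. Day 9 against day 6 had 1 with quantile normalization and 0 to 1 without one library, and day 12 against day 9 had 0 to 2. Day 12 against day 6 had 3 with a pseudocount of 0.1, 11 with no filter, 15 with quantile normalization, 9 with median-ratio rescaling, 17 in the 6 later libraries alone, and 1 to 19 without one library. Except for smaller member sets and tests of fewer libraries, the cause was not tested. No named locus reversed its direction; 491 of their values kept their call and 73 lost it, all for the interaction (48) or for day 12 against day 6 (25). Depth is not known, so the precision of low values is not known either.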
